A study of Rattus norvegicus with 8 samples.

Results

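The genes described here are those whose level in INS-1 cells at 2.8 mM glucose was more than 2-fold higher with forskolin, as listed by the authors, with a mean over the 4 libraries of their table of at least 1 FPKM. FPKM is a fragment count divided by the length of the transcript and by the number of fragments mapped. Of the 1344 genes in the table, 1049 met this rule and 295 lay below it. INS-1 is a rat insulinoma line that secretes insulin and is widely used in place of primary beta cells. Cells were held at 2.8 mM glucose for 3 days, and 1 culture then received forskolin (10 uM) and the other DMSO, its solvent, each for 2 h. The table also holds DMSO and forskolin libraries from 20 mM glucose, which entered only through the mean used in the rule. A separate table of 4 libraries at 11 mM glucose covers cells without virus and cells exposed to an A-CREB adenovirus for 2 days. Its no-virus pair, with the same forskolin dose and 2 h, was used for 1 overlap. The A-CREB libraries entered only through a mean used there. The cells are a single tumour line, so the values hold for this line.

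Each group had 1 library. No difference between DMSO and forskolin had a replicate check, none was tested and no p-value is given. The table was listed by this same ratio, so that every member is higher in forskolin is a property of the list and not a result. Genes that fell, did not move or missed the ratio were not analysed here, and a list member named below as absent may belong to any of these.

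Forskolin activates adenylyl cyclase, which makes cAMP. In beta cells cAMP is the messenger of incretin hormones such as GLP-1, and it acts through protein kinase A and Epac. Protein kinase A phosphorylates CREB, a transcription factor that binds the cAMP response element (CRE) near gene starts and works with CRTC and CBP coactivators. Known early CREB targets include transcription factors that drive later genes, and proteins that shut the signal off.

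The promoters of members with high folds show where CRE letters lie. Start windows from RefSeq on the GRCr8 rat assembly, 250 bases before to 50 bases after each annotated start, were matched to 822 of the 1049 genes. GRCr8 is not the rn5 build to which the reads were aligned, so the windows were matched by gene name or identifier. The 250 bases before the start are given for the 6 genes with the highest folds whose upstream letters hold the full CRE TGACGTCA, and for the 2 highest without CRE letters, to set both kinds side by side. Of the 15 highest folds, Nr4a3, Gprc5a, Ccnd1 and Fos were not matched to a window and were not searched. The sequences are printed 5′ to 3′ on the gene's strand, and capitals mark the full CRE or the CRE core TGACG on either strand.
Crem, GRCr8 chr17:58984547-58984796, plus strand: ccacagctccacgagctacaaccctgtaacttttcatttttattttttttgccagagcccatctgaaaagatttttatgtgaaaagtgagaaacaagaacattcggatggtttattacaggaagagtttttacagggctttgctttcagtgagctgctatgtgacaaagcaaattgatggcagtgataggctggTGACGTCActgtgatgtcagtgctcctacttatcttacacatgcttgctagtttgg
Cartpt, GRCr8 chr2:32991236-32991485, minus strand: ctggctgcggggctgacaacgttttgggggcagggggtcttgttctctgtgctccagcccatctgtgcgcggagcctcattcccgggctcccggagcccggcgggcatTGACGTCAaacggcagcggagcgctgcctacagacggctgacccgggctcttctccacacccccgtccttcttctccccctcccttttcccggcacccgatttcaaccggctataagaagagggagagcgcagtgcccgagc
Maff, GRCr8 chr7:112792537-112792786, plus strand: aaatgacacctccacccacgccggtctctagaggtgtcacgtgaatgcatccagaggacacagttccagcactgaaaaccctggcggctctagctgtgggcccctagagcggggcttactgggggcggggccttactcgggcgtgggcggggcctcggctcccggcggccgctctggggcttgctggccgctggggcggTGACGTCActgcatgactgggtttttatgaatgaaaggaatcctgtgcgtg
Ppargc1a, GRCr8 chr14:63634058-63634307, plus strand: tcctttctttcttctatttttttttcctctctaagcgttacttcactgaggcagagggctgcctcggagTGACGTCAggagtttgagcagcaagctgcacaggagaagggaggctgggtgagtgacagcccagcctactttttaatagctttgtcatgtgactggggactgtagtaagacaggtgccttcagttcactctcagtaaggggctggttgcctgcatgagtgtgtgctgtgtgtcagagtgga
Pard6a, GRCr8 chr19:50499708-50499957, plus strand: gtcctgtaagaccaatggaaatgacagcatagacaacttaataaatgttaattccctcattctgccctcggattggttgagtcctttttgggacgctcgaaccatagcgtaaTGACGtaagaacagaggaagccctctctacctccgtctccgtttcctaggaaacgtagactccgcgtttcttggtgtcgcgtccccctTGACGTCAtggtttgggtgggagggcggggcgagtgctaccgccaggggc
Plk2, GRCr8 chr2:43702286-43702535, plus strand: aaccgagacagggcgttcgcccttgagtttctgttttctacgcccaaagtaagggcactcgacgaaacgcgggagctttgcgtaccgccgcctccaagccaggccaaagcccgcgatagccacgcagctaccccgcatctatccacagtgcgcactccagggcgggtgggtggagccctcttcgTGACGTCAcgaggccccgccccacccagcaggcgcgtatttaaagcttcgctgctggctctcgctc
Fosl2, GRCr8 chr6:30039270-30039519, minus strand: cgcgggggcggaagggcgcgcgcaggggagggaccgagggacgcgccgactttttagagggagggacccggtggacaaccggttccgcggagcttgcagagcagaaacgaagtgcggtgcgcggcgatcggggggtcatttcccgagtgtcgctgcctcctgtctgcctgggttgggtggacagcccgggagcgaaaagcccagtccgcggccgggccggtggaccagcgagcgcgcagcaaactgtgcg
Fosb, GRCr8 chr1:88089185-88089434, minus strand: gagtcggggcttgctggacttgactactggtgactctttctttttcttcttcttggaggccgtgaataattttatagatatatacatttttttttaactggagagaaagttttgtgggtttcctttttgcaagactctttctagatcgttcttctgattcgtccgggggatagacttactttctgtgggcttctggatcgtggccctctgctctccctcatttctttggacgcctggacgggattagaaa
In these windows the full CRE begins 56 bases before the start in Crem, 51 in Maff, 50 in Pard6a and 66 in Plk2. It lies farther out in Cartpt, at 142 bases, and in Ppargc1a, at 181 bases. Crem encodes the CREB relative ICER, a repressor made from an internal start, and the table holds 3 windows for this gene. The windows of Fosl2 and Fosb hold neither the full CRE nor its core. Both genes had folds above 300 (below), that of Fosb from about 7 reads in DMSO. A match is a description of letters, and a missing match says only that these letters are not in this window.

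The folds below are (forskolin + 0.1)/(DMSO + 0.1) in FPKM, which understates the fold of weakly expressed genes. The median fold of the 1049 genes was 2.94, a log2 fold of 1.56 (95% order-statistic interval over genes 1.51 to 1.62, which does not cover the spread between cultures). The middle 50% of genes lay between 1.21 and 2.29 on the log2 scale. The fold was 4 or more in 335 genes (31.9%) and 8 or more in 153 (14.6%). A total of 65 genes reached 16-fold, 37 reached 32-fold, 18 reached 64-fold and 13 reached 100-fold. The distribution therefore has a long upper tail over a large body of genes near the listing limit of 2-fold. The lowest ratio among the members was 2.002, for LOC689959 at 8.92 and 17.9 FPKM in DMSO and forskolin. Just inside the mean of 1 FPKM lay Cetn4, with a mean of 1.004 FPKM, and just outside it Fbn1, with a mean of 0.992 FPKM.

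The genes with high folds mostly started low. The median DMSO level was 14.99 FPKM in the 714 genes under 4-fold, 9.36 FPKM in the 182 genes from 4-fold to under 8-fold and 3.14 FPKM in the 153 genes of 8-fold or more. The median forskolin levels ran the other way, at 40.96, 46.8 and 86.1 FPKM. Of the 111 genes below 1 FPKM in DMSO, 69 reached 4-fold (62.2%). Of the 854 genes from 1 to under 100 FPKM, 255 did (29.9%), and of the 84 genes at 100 FPKM or more, 11 did (13.1%). The single gene of this last group to reach 8-fold was Mapkapk2, which encodes a kinase downstream of p38, with 101 FPKM in DMSO and 1017 with forskolin. DMSO level and fold share the DMSO value, and low values carry more counting error, so this relation is a description.

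**Figure D1:**
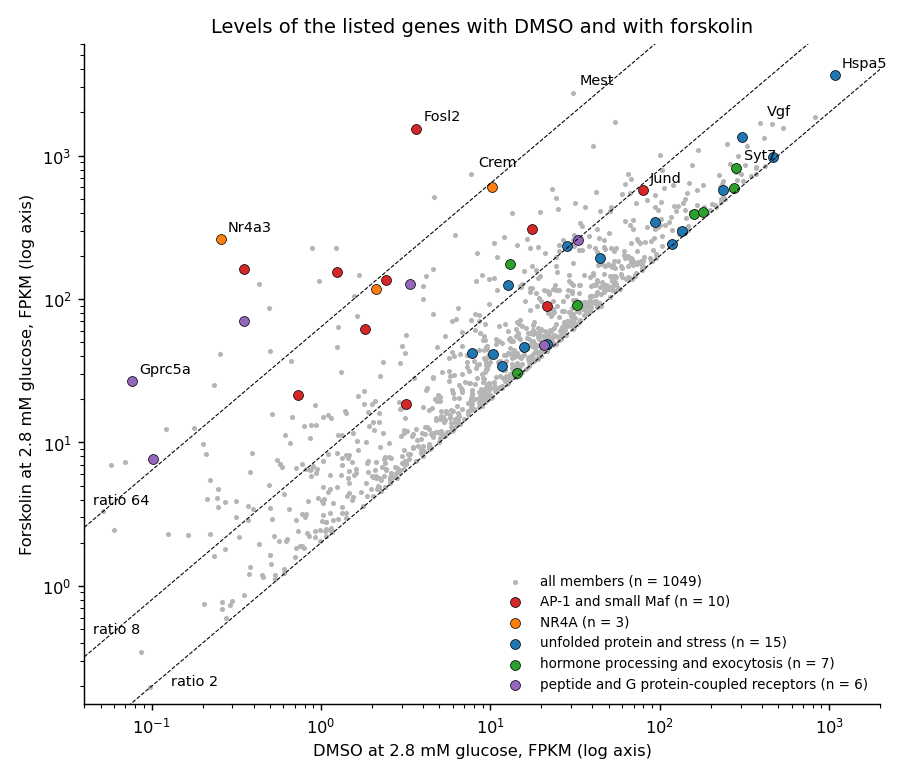
Level of each of the 1049 genes in the DMSO library (x axis, FPKM, log scale) and the forskolin library (y axis, FPKM, log scale) at 2.8 mM glucose, 1 library per axis, with dashed lines at ratios of 2, 8 and 64. The 3 NR4A genes and 7 of the 10 AP-1 genes lie above the ratio of 8, while Hspa5 at 1076 and 3641 FPKM lies between the ratios of 2 and 8.

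Total read numbers were not in the files. Many low values fell on steps of whole reads, with 45.1% of low forskolin over DMSO ratios within 2% of a step. The step was fitted to these same ratios, and the share expected without steps was not estimated. From the fitted step, the forskolin library was estimated to have 0.742 times the depth of the DMSO library. At the median gene, 1 FPKM was estimated to stand for about 18.7 reads in DMSO and 13.9 reads in forskolin. The depth holds only if FPKM was scaled by mapped fragments, and the library scaling is not given. The number of reads per FPKM varies with gene length. Intervals for single folds below are exact 95% binomial intervals from these estimated reads, on the ratio without pseudocount, and cover counting error only. Of the 10 beta cell markers looked for, 2 were listed, Mafa and Pcsk1, and the other 8 were not analysed here, so the label of the cells can be checked only this far. Of 34 markers of other islet, exocrine, immune, vessel and connective cells, 1 was listed. This was Kdr, a VEGF receptor of endothelial cells, with 0.252 FPKM in DMSO and 41.3 with forskolin.

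Gene classes were described with 24 lists of 706 distinct genes. They held 189 of the 1049 members, with 60 of the 153 genes at 8-fold or more. The list medians are set beside the median of all members. Counts past 4-fold and 8-fold are to be read beside the shares of all members, 31.9% and 14.6%. The lists were chosen with earlier results of these data known, and nothing particular to a list was tested.

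Transcription factors of the early response are described first. The NR4A orphan nuclear receptors, which bind DNA without a known natural ligand, were all 3 listed with folds above 50. Nr4a3 had 0.256 FPKM in DMSO and 263 with forskolin, a fold of 739 and the highest of all members. About 5 reads stand behind its DMSO value, so its ratio has an interval of 421 to 3027. With a pseudocount of 1 its log2 fold was 7.72 in place of 9.53, and Fosl2 came first with 8.38. Nr4a1 was at 10.2 and 604 FPKM, a fold of 58.9, and had the highest forskolin level of the 3 receptors. Nr4a2 was at 2.11 and 117 FPKM, a fold of 52.9. Nr4a1 and Nr4a2 thus had near folds at levels several times apart. In pairs of values here and below, DMSO comes first and forskolin second. The start window of Nr4a1 holds 4 CRE cores, at 246, 226, 82 and 53 bases before the start.

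Of 15 AP-1 and small Maf genes, 10 were members, all of them at least 4-fold and 7 at least 8-fold, with a median fold of 28.9. The shares of all members were 31.9% at 4-fold and 14.6% at 8-fold. AP-1 is a dimer of Fos and Jun proteins, and small Maf proteins pair with related factors. Fosl2 was at 3.65 and 1544 FPKM, a fold of 412 (ratio interval 334 to 546). It had the highest forskolin level of the class, above the 161 FPKM of Fosb and the 155 FPKM of Fos. Fosb, named here through its gene identifier, started from 0.352 FPKM and Fos from 1.24 FPKM, for folds of 357 and 116. About 7 reads stand behind the DMSO value of Fosb, and its ratio interval was 208 to 1070. With a pseudocount of 1 its log2 fold was 6.91 in place of 8.48. The Jun partners had lower folds. Jund was at 79.1 and 575 FPKM, a fold of 7.26, and Junb at 17.5 and 308 FPKM, a fold of 17.5. Jun was at 3.19 and 18.7 FPKM, a fold of 5.71. Fosl2, Fosb and Fos thus had the highest folds of the class, and Jund had the highest DMSO level. The fourth Fos-type gene, Fosl1, was at 0.734 and 21.3 FPKM, a fold of 25.7. Maff, a small Maf gene whose promoter is printed above, was at 2.43 and 136 FPKM. Atf3, a stress-induced CREB/ATF relative, was at 1.82 and 62.2 FPKM, a fold of 32.4.

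The Egr and immediate early list was lower, with 6 of 15 genes as members and a median fold of 4.27. Csrnp1, a nuclear protein first found as an axin target, was at 4.02 and 99.95 FPKM. Egr1, a zinc finger factor and classical serum response gene, was at 23.6 and 85.2 FPKM, a fold of 3.60. Among 24 Klf, C/EBP and Id genes, 9 were members and 4 reached 8-fold, against 14.6% of all members. Klf4, a zinc finger factor, was at 1.68 and 146 FPKM, a fold of 82.03. Cebpd, a C/EBP family factor, was at 6.17 and 281 FPKM, a fold of 44.8, against 7.14 for its relative Cebpb. The Id proteins block basic helix-loop-helix factors, and all 4 were members. Their folds were 23.1 for Id4, 5.57 for Id1, 2.89 for Id2 and 2.48 for Id3. Id1 and Id3 were already at 155 and 161 FPKM in DMSO, and Id4 at 10.5 FPKM. The order of the folds does not follow that of the DMSO levels, since Id2 had the lowest level of the 4, at 2.28 FPKM.

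Among CREB, its coactivators and the salt-inducible kinases, 6 of 14 genes were members, and their folds fell into 2 sets. Crem was at 7.73 and 738 FPKM, a fold of 94.3. Sik1, a kinase that keeps CRTC coactivators out of the nucleus, was at 4.66 and 517 FPKM, a fold of 109. Ppargc1a, a coactivator of mitochondrial genes, was at 1.63 and 76.7 FPKM, a fold of 44.4. These 3 genes stood apart from Creb3l1, Creb3l2 and Sik3, which is listed as LOC684112, with folds from 2.87 to 3.04. Creb3l1 and Creb3l2 encode membrane-bound factors of the secretory pathway. The Sik1 window holds CRE cores 191 and 180 bases before the start.

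The regulators of cAMP and G protein signalling had 16 of 43 genes as members, with a median fold of 3.80. Rgs2, which speeds up the inactivation of G proteins, was at 0.884 and 226 FPKM, a fold of 229.9 (ratio interval 155 to 427). The small GTPases of the RGK group, which restrain voltage-gated calcium channels, had Gem at 11.0 and 196 FPKM and Rem2 at 24.4 and 170.3 FPKM. Akap12, a scaffold that holds protein kinase A, was at 33.7 and 338 FPKM. Several enzymes that make or break down cAMP were also members. Of these, 6 were phosphodiesterase genes of the Pde3, Pde4, Pde7, Pde8 and Pde10 families other than Pde4a, with folds from 2.04 to 3.88, and Pde4a alone reached 12.1. The adenylyl cyclase genes Adcy5 and Adcy9 had folds of 5.08 and 2.27. Prkar1a, the regulatory subunit that holds protein kinase A inactive, was the most expressed of the list, at 261 and 878 FPKM, a fold of 3.36. Thus genes on the inhibitory side of the pathway and cyclase genes were listed together.

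Of the 20 MAP kinase phosphatase and feedback genes, 9 were members, with a median fold of 5.34. Dusp1, a nuclear phosphatase of MAP kinases, was at 36.1 and 441 FPKM, a fold of 12.2. The other phosphatases of this family had Dusp8 at 309 FPKM, Dusp4 at 111 FPKM and Dusp5 at 85.0 FPKM in forskolin, with folds of 4.43, 5.94 and 3.68. Spry1, a Sprouty inhibitor of growth factor signalling, was at 1.38 and 16.7 FPKM. Errfi1, an inhibitor of the EGF receptor, was at 17.1 and 119 FPKM. Egfr, the EGF receptor itself, was at 2.88 and 19.03 FPKM, so receptor, inhibitor and the ligand Hbegf (below) were all listed. Of 18 clock genes 6 were members, and they split into 3 genes above 12-fold and 3 below 2.5-fold. The first 3 were Cry2, Nfil3 and Per1, at 25.2, 16.5 and 19.1 FPKM in DMSO and 423, 262 and 232 FPKM in forskolin. The other 3 were Per2, Bhlhe40 and Clock, at 8.76, 23.6 and 10.6 FPKM in DMSO and 21.3, 55.9 and 22.7 FPKM in forskolin. Cry2 and the Per genes encode repressors of the clock, and Nfil3 a repressor of its output genes.

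**Figure D2:**
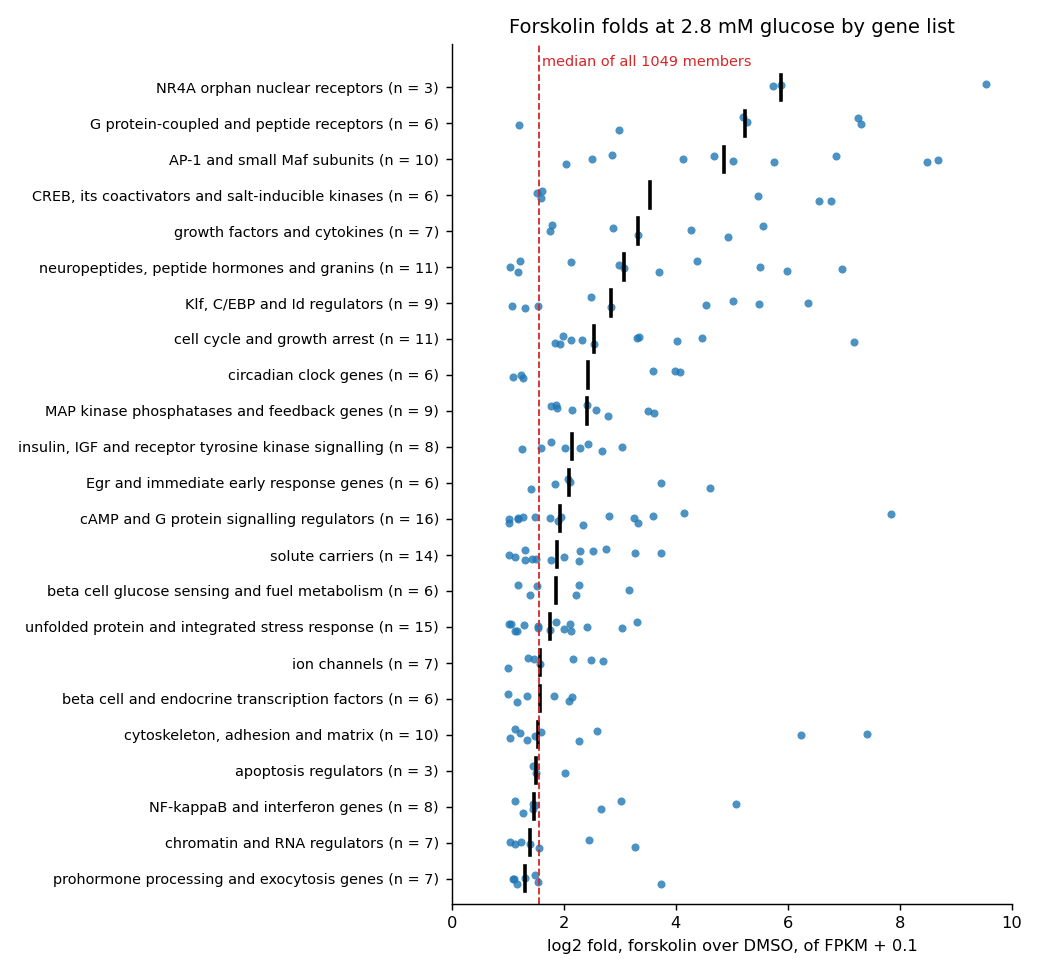
Log2 fold of forskolin over DMSO (x axis, FPKM + 0.1) of each member of the gene lists with at least 3 members, with a black bar at the list's median and a dashed line at the median of all 1049 genes (1.56). The NR4A, receptor and AP-1 lists have the highest medians, and prohormone processing and exocytosis the lowest, at 1.31.

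Secreted peptides and their receptors covered a wide range of levels. Of 39 neuropeptide, hormone and granin genes 11 were members, with a median fold of 8.44. Of these, 6 reached 8-fold, against 14.6% of all members. Tac1, the precursor of substance P, was at 0.968 and 133 FPKM, a fold of 124. Cartpt, the precursor of CART peptides, was at 1.56 and 105 FPKM, a fold of 62.9. Cck, the precursor of cholecystokinin, was at 24.4 and 506 FPKM, a fold of 20.7. Vgf, a granin-like precursor of granule peptides, had the highest levels of the list, at 389 and 1693 FPKM, with a fold of 4.35. Penk, the precursor of enkephalins, had only 0.0573 FPKM in DMSO, about 1 read, and 7.01 FPKM in forskolin. Its fold of 45.2 therefore rests on the pseudocount. Stc1, a glycoprotein hormone, was at 51.8 and 438 FPKM. Of 28 genes that process and release granule content 7 were members, with a median fold of 2.48 from a median DMSO level of 158 FPKM. Syt7, a calcium sensor of exocytosis, was at 283 and 826 FPKM, a fold of 2.92, and Ptprn, a granule membrane protein, at 276 and 597 FPKM. Pcsk1, the convertase that cuts proinsulin, was at 14.3 and 30.7 FPKM. Syt4, a synaptotagmin with weak calcium binding, had the highest fold of the list, at 13.1 and 176 FPKM, a fold of 13.4.

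Of 35 G protein-coupled and peptide receptor genes 6 were members, and 5 of them reached 4-fold, against 31.9% of all members. Rxfp3, a receptor of relaxin-3, was at 0.349 and 70.6 FPKM, a fold of 157. Gprc5a, an orphan receptor, was at 0.0768 and 26.9 FPKM, a fold of 153 that starts from about 1 read. Ntsr1, a neurotensin receptor, also started from few reads, at 0.102 FPKM, and was at 7.68 FPKM in forskolin. Sstr1, a somatostatin receptor that lowers cAMP, was at 3.36 and 127.5 FPKM, a fold of 36.9. Adra2a, the adrenergic receptor that restrains insulin secretion and also lowers cAMP, was at 20.6 and 47.6 FPKM, a fold of 2.30. Of the 4 receptor genes at 8-fold or more, 3 were thus near 0 in DMSO, and Sstr1 was the one with more reads there.

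Among 40 growth factor and cytokine genes 7 were members. Tgfb2, of the TGF-beta family, was at 1.26 and 63.9 FPKM, a fold of 47.0. Hbegf, which binds and activates EGF receptors, was at 3.98 and 124 FPKM, a fold of 30.5. Vegfa, the endothelial growth factor, was at 180 and 625 FPKM, a fold of 3.48, the highest level of the list. Its receptor gene Kdr had a fold of 118 from about 5 reads in DMSO. For insulin and receptor tyrosine kinase signalling, 8 of 32 genes were members, with a median fold of 4.45. Irs2, the adaptor that couples the insulin and IGF-1 receptors to PI3 kinase and a known CREB target in beta cells, was at 66.5 and 546 FPKM, a fold of 8.20. Igf1r was at 113 and 343 FPKM, a fold of 3.03.

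Beta cell transcription factors had folds near that of all members. Of 25 such genes 6 were members, with a median fold of 2.98, and 2 reached 4-fold, against 31.9% of all members. Mafa, an activator of the insulin gene in mature beta cells, was at 149 and 639 FPKM, a fold of 4.27. Foxa2 was at 51.8 and 228 FPKM, a fold of 4.40, and St18 at 141 and 496 FPKM, a fold of 3.53. Nkx2-2 lay close to the listing limit, at 95.3 and 192 FPKM. In fuel metabolism 6 of 43 genes were members. The glucose transporter gene Slc2a1 was at 22.2 and 108 FPKM, and the glycolytic activator gene Pfkfb3 at 3.12 and 14.8 FPKM. Insig1, which restrains sterol synthesis, had the highest fold of that list, 8.95.

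Of 41 genes of the unfolded protein and integrated stress responses 15 were members, and 6 of them reached 4-fold, against 31.9% of all members. Hspa5, for the abundant chaperone BiP of the endoplasmic reticulum, had the highest level of all members, at 1076 and 3641 FPKM, a fold of 3.38. The chaperone gene Hsp90b1 was at 466 and 971 FPKM and Canx, for calnexin, at 119 and 242 FPKM, both just above 2-fold. Higher folds came from genes of growth arrest and phosphatase feedback. Ppp1r15a, which restores translation by removing phosphate from eIF2alpha, was at 28.4 and 234 FPKM, a fold of 8.21. Gadd45b had a fold of 9.90, and Gadd45g was at 307 and 1338 FPKM. Ddit3, the stress factor CHOP, was at 44.4 and 193 FPKM, and Atf4, which acts upstream of it, at 236 and 574 FPKM.

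Of the 36 cell cycle and growth arrest genes 11 were members, and 8 reached 4-fold, against 31.9% of all members. Ccnd1, for cyclin D1, was at 0.496 and 86.5 FPKM, a fold of 145, while Ccnd3 was at 49.4 and 176 FPKM, a fold of 3.57. Ccnd3 stayed the more abundant of the cyclin D genes listed, in forskolin as in DMSO, on the length-scaled FPKM. Plk2, a kinase of centriole duplication, was at 1.31 and 30.9 FPKM, and its relative Plk3 at 8.93 and 146 FPKM. The antiproliferative gene Btg1 was at 67.5 and 687 FPKM, a fold of 10.2, and the CDK inhibitor gene Cdkn1b at 42.4 and 213 FPKM. Genes that promote and genes that restrain the cycle were thus listed together. Of the S phase and mitosis genes in the list, such as Mki67, Top2a and Ccnb1, none was listed. Of the apoptosis regulators 3 of 22 were members, with folds from 2.73 for Mcl1 to 4.04 for Bcl2l11, which encodes the killer protein BIM.

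Transport and excitability genes lay closer to the median. Of 34 solute carrier genes 14 were members, with a median fold of 3.70. Slc25a25, a mitochondrial carrier of ATP and magnesium, was at 41.9 and 561 FPKM, a fold of 13.4. The subunits of a large neutral amino acid transporter, Slc7a5 and Slc3a2, were at 536 and 466 FPKM in forskolin, with folds of 5.73 and 3.40. Of 41 ion channel genes 7 were members, none at 8-fold, against 14.6% of all members. Grin1, an NMDA receptor subunit, was at 10.8 and 48.9 FPKM, a fold of 4.51, and Hcn4, a pacemaker channel, at 30.5 and 78.6 FPKM. Of 37 chromatin and RNA regulators 7 were members. Zfp36, which speeds the decay of AU-rich mRNAs, was at 17.5 and 171 FPKM, and Cpeb4, a regulator of translation, at 46.7 and 257 FPKM. Of 33 NF-kappaB and interferon genes 8 were members, led by the surface protein gene Cd83 at 4.18 and 145 FPKM. Of 45 cytoskeleton and matrix genes 10 were members. Actn2, the alpha-actinin of striated muscle, was at 1.23 and 226 FPKM, a fold of 170.1, and Thbs1, a matrix protein, at 0.234 and 25.1 FPKM. Tpm4, a tropomyosin, was at 249 and 1198 FPKM.

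Folds and amounts picked out different genes. Summed over the 1049 genes, the level was 36717 FPKM in DMSO and 134706 FPKM in forskolin, a ratio of 3.67. Each member was listed for a ratio above 2, so the summed ratio had to exceed 2, and it does not cover genes outside the list. The 10 genes with the highest gain in FPKM held 15.5% of the summed gain, and 82 genes held 50% of it. The 153 genes of 8-fold or more held 28.9%. Mest, an imprinted gene of the alpha/beta hydrolase family, gained most, from 30.6 to 2749 FPKM, a fold of 89.6 (ratio interval 82.8 to 97.9). Hspa5 followed with a gain of 2565 FPKM, then LOC689986 at 54.7 and 1723 FPKM. Mest and Fosl2 were the 2 genes found both among the 10 highest gains and among the 15 highest folds. Diras2, a small GTPase of the Ras family, was at 40.1 and 1160.4 FPKM, a fold of 28.9. Maged1 was at 457 and 1650 FPKM, Cd63, a tetraspanin of late endosomes, at 825 and 1866 FPKM, and Ckb, a creatine kinase, at 536 and 1554 FPKM. Rps15 was at 415 and 1329 FPKM and is a ribosomal protein gene with near copies in the genome, so how its reads were assigned is uncertain. Of the genes at 8-fold or more, 93 were in none of the lists. Fam46b, named Tent5b in RefSeq, was one, at 0.428 and 127 FPKM, a fold of 239.95. Others, chosen after their values were seen, were Sv2c, a synaptic vesicle protein, at 0.502 and 43.4 FPKM, and Pard6a, a cell polarity protein whose promoter is printed above, at 4.56 and 161 FPKM. The homeobox genes Dlx2 and Zhx2 were at 0.179 and 12.7 FPKM and at 1.24 and 45.9 FPKM. About 3 reads stand behind the DMSO value of Dlx2.

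**Figure D3:**
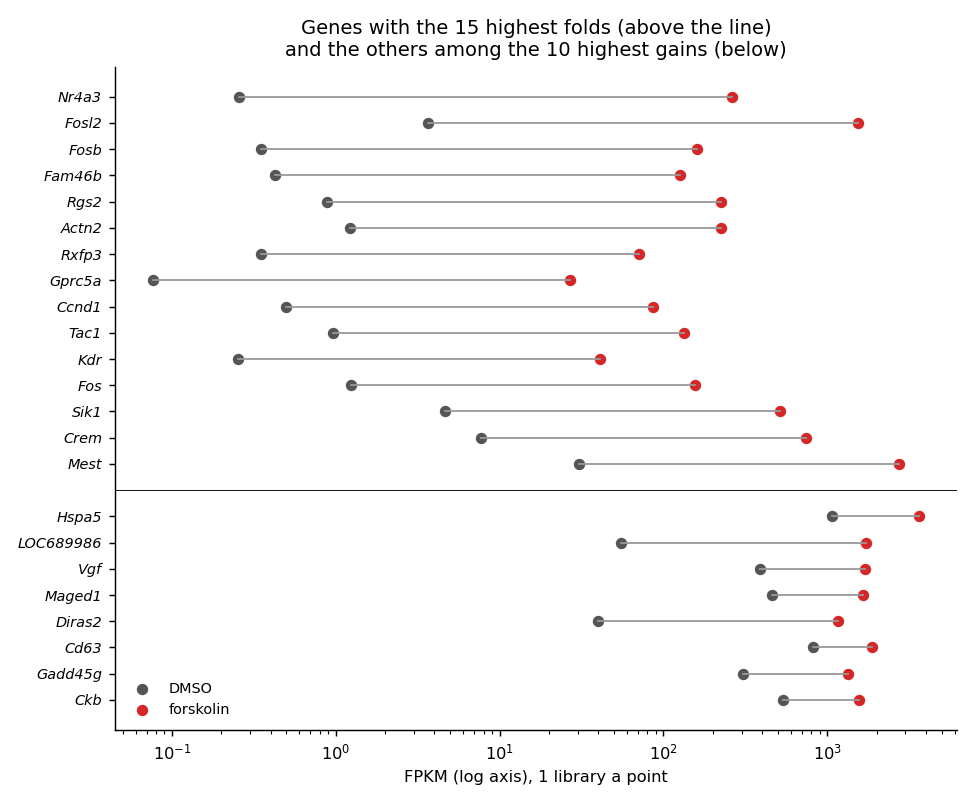
FPKM (x axis, log scale) in DMSO (grey) and forskolin (red) at 2.8 mM glucose, 1 library each, for the genes with the 15 highest folds and, below the line, the remaining genes of the 10 highest gains. The upper genes start mostly below 10 FPKM, apart from Mest at 30.6 FPKM, and the lower genes start at 40.1 FPKM or more.

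The letters of the start windows were not used to choose the genes. The full CRE was found in 66 of 822 members (8.03%, 95% Wilson interval 6.36 to 10.1), against 549 of all 27457 genes of the promoter table (2.00%) and 2.28% of its protein-coding genes. The CRE core TGACG, which every full CRE contains on both strands, was in 387 members (47.1%). It was in 23.0% of all genes and 25.1% of protein-coding genes. At least 2 CRE cores were in the first window of 19.6% of members and 5.21% of all genes. A full CRE by itself holds 2 cores, so these shares need not mean separate sites. The members' windows were also richer in bases G and C, at a median of 63.0% against 52.3%, and held a median of 23 CG pairs against 7. For protein-coding genes these medians were 55.3% and 12. Letters with a CG pair can turn up more often in windows rich in G and C. The members also had to reach a mean of 1 FPKM, while the genes of the promoter table were not chosen by level. No set of the same composition or level was compared. The 5 palindromes that reorder the T, G and A before the central CG, and mirror them after it, are GTACGTAC, TAGCGCTA, ATGCGCAT, GATCGATC and AGTCGACT. They were added after seeing the data, and were in 0 to 5 members each and in 12 to 89 of all genes. These counts are too low to gauge the part played by composition. The most frequent, ATGCGCAT, was in 0.608% of members and 0.324% of all genes. AGTCGACT was in 0.243% and 0.109%, and the others were in no member.

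Among the members, the full CRE was set beside the size of the fold. It was in 42 of 563 genes under 4-fold (7.46%, interval 5.57 to 9.93), 11 of 146 from 4-fold to under 8-fold (7.53%, 4.26 to 13.0) and 13 of 113 at 8-fold or more (11.5%, 6.85 to 18.7). These intervals overlap and cover counting error only. The median log2 fold was 1.62 in genes with the full CRE (order-statistic interval 1.49 to 1.94), 1.44 with the core only (1.37 to 1.55) and 1.60 with neither (1.53 to 1.69). Where the full CRE was present in members, its first base lay at a median of 75 bases before the start. It began within the 100 bases before the start in 40 of the 66 genes. Over all genes with the full CRE, the median was 62 bases, and 339 of 549 had it begin within those 100 bases. This placement is thus not particular to the members. Of the 24 lists, 10 held the full CRE in at least 1 member and 14 in none. It was in 2 of 7 AP-1 genes with a window (Maff and Jund) and 2 of 6 genes of the CREB and kinase list (Crem and Ppargc1a). It was also in 2 of 8 peptide genes (Cartpt and Vgf), 2 of 10 cell cycle genes and 3 of 11 solute carriers. Lists with a single such gene were Egr (1 of 4), MAP kinase feedback (1 of 7), stress (1 of 15), chromatin and RNA (1 of 6) and cytoskeleton (1 of 7). Over all members the share was 8.03%. Counts this small cannot set a list apart from all members, and none was tested. Among the lists with none were the 13 cAMP regulators with a window, where 7 had the core, a share near the 47.1% of all members.

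Other motifs were searched in the same windows on both strands. The E-box CACGTG was in 13.02% of members and 7.08% of all genes, and the AP-1 site TGANTCA in 5.96% and 8.04%. The NR4A site AAAGGTCA was in 0.973% and 1.49%, and the TATA box TATAAA in 8.76% and 15.3%. The endoplasmic reticulum stress element, CCAAT and CCACG with 9 bases between them, was in 4 members (0.487%) and 21 of all genes (0.0765%). Of these 4 members, 3 were in the stress list, Hspa5, Hsp90b1 and Canx, and the other was Zfand2a. Hspa5 has it 43 bases before the start, and Hsp90b1 has 2 copies, beginning 176 and 72 bases before it. The element is the known binding site of the unfolded protein response factors ATF6 and XBP1 with NF-Y.

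**Figure D4:**
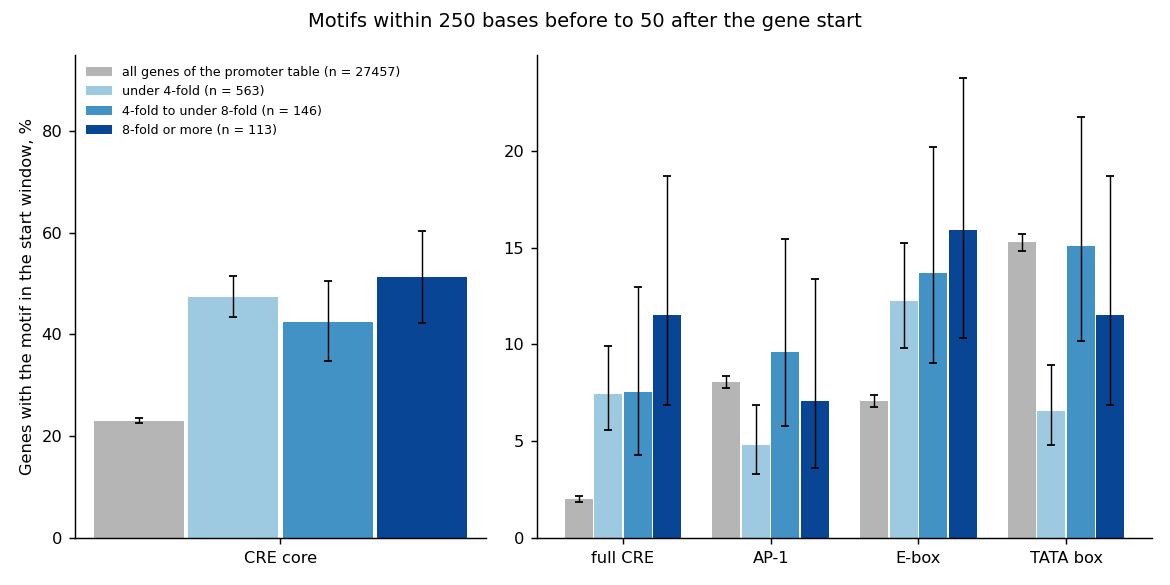
Share of genes (y axis, %) with each motif in the window from 250 bases before to 50 bases after the start, for all genes of the promoter table and for members by fold, with 95% Wilson intervals as error bars. The full CRE is in 2.00% of all genes and 7.46%, 7.53% and 11.5% of the members in rising order of fold.

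A separate pair of libraries, from cells without virus at 11 mM glucose, shares no library with the 2.8 mM pair. Its table also lists genes above a forskolin over DMSO ratio of 2, and the 2 tables were not normalised together, so that folds within each pair are set side by side and levels are not. Of the 1049 members, 302 (28.8%) were listed there, and 301 of the 566 genes of that table (53.2%) were members, since 2 member names match 1 gene. The share listed was 12.9% of the genes under 4-fold at 2.8 mM, 46.2% from 4-fold to under 8-fold and 82.4% at 8-fold or more. A gene with a high fold can be lower in other cells and still pass a limit of 2, so a gradient of this kind can follow from the limit alone. In the other direction, 60 of the 61 genes with a fold of at least 8 without virus and a mean of at least 1 FPKM were members. Of the 331 genes under 8-fold with such a mean, 224 were (67.7%). That mean was over all libraries of that table, the A-CREB libraries included. Of the 15 highest folds at 2.8 mM, 13 were listed, and Fam46b and Gprc5a were not. Of these 13 genes, 11 had a lower fold without virus, and Fosb and Sik1 a higher one. The 13 genes were picked for a high fold at 2.8 mM, so a lower fold in a second pair can follow from that choice alone. Side by side, Nr4a3 had folds of 739 at 2.8 mM and 189 without virus. Fosl2 had 412 and 111, and Sik1 had 109 and 115. Tac1 had 124 and 4.30. Over all 302 shared genes, the fold was lower in the no-virus pair at 11 mM in 240 and higher in 62. Among shared genes at 8-fold or more at 2.8 mM it was lower in 112 and higher in 14. From 4-fold to under 8-fold the counts were 74 and 10, and under 4-fold they were 54 and 38. The labels name no virus for the 2.8 mM pair either, and the 2 pairs differ in glucose, so this is not a contrast of virus. The classes of fold were formed on the 2.8 mM pair, and with 1 library per group no difference between the pairs was tested.

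**Figure D5:**
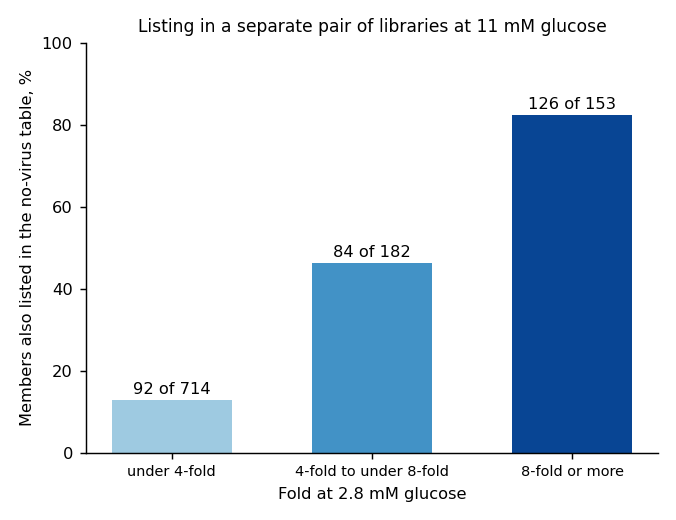
Share (y axis, %) of the members in each class of fold at 2.8 mM glucose (x axis) that were also listed for forskolin in the no-virus libraries at 11 mM glucose, with the counts above the bars. The share is 12.9%, 46.2% and 82.4% in rising order of fold.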

How the data were processed

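The labels' protocols name Trizol with an RNeasy column for RNA and NEBNext-Ultra kits for the mRNA libraries. TopHat2, Cuffdiff and the build rn5 are named in the submitters' processing notes. For annotation, strand and library scaling, settings are not given in the sources used here. Both tables hold deposited FPKM values, which the authors cut to genes with a forskolin over DMSO ratio above 2, as tested on the values. Each column was assigned to its library by name.

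Of the 1049 member names, 957 matched a RefSeq symbol, 65 a synonym, 17 a gene identifier and 10 nothing, and 1 name of digits only was counted but not named. Folds used a pseudocount of 0.1 FPKM. Medians have 95% order-statistic intervals over genes. Depth came from the 295 genes with a mean below 1 FPKM, where 45.1% of forskolin over DMSO ratios lay within 2% of whole-read steps, and from 95 genes at 1 read in DMSO.

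The members, lists and tests were chosen with earlier results of these data known. Named genes were, per list, up to 5 with the highest fold and 3 more with the highest level, and over all members the 15 highest folds and the 10 highest levels and gains. Fbn1, Cetn4, LOC689959, Mapkapk2, Zfand2a and genes set beside a relative were named for a limit, a count or a contrast. The printed promoters were cut to the 250 bases before the start. Functions were tested on simulated data. Python 3.11.15, numpy 2.4.6, pandas 2.3.3, scipy 1.17.1 and matplotlib 3.10.9 were used. Some results are not reported here.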

Additional observations from a re-analysis of the deposited data

How the results depend on the processing

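The median log2 fold of all members was 1.56, and it was 1.44 with a pseudocount of 1 and 1.45 with no filter on low values. With a pseudocount of 0.01, means of at least 5 FPKM, or the mean over the 2 libraries at 2.8 mM, it stayed within its interval over genes. The median of the receptor list went from 5.23 to 3.84 with a pseudocount of 1, and that of the growth factor list from 3.33 to 2.36 with no filter, both within their wide intervals. Leaving out genes listed at 0 altered nothing, since no member was at 0 in these libraries. The count of genes at 4-fold or more was 275 with a pseudocount of 1 and 343 with 0.01, against 335, and that at 8-fold or more was 105 and 158, against 153. Of 164 named genes, 34 had a log2 fold outside the counting interval with a pseudocount of 1, and none reversed. Nr4a3 had 7.72, so that Fosl2, at 8.38, had the highest fold. Penk was at 2.92 and Ntsr1 at 2.98 on the log2 scale with that pseudocount, so their folds rest on few reads. The full CRE was in 7.42% of members with the upstream 250 bases only, against 1.78% of all genes, and in 7.66% with the first window of each gene, against 1.91%, a choice made after seeing the data. Matching by symbol only gave 7.77%. No paired analysis was possible because each group had 1 library.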
